A study of Mus musculus with 13 samples.

Results

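The 9 genes described here encode the receptors through which autonomic nerves act on the salivary gland: the muscarinic receptors Chrm1 and Chrm3, the adrenergic receptors Adra1a, Adra1b, Adra2a and Adrb1, the VIP receptors Vipr1 and Vipr2, and the tachykinin receptor Tacr1. They were chosen by symbol, and all 9 were found among the 23364 genes of each file. RNA-seq of the submandibular gland of C57BL/6 mice was followed at 6 time points, with no treatment and no genetic change in any group. There were 3 samples at E14.5 (E for embryonic day) and 2 samples each at E16.5, E18.5, P5 (postnatal day 5), 4wk and 12wk (weeks of age). The 7 samples from E14.5 to E18.5 formed the embryo stage, the 2 samples at P5 the neonatal stage, and the 4 samples at 4wk and 12wk the adult stage. Embryonic samples were pooled glands of several animals, the 4wk and 12wk mice were male, and sex was not ascertained for the embryos and the P5 mice, so that the adult stage and sex cannot be told apart.

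Saliva is secreted on demand from nerves. Acetylcholine from parasympathetic nerves acts on muscarinic receptors of acinar cells, which signal through Gq and calcium to release fluid, while noradrenaline from sympathetic nerves acts on beta receptors, which raise cyclic AMP and release stored protein, and on alpha-1 receptors, which raise calcium. Alpha-2 receptors couple to Gi and lower cyclic AMP, VIP receptors couple to Gs, and the receptor for substance P couples to Gq.

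Levels are given as FPKM, the reads on a gene per kilobase of its length, scaled to the total reads of the sample, and divided by a factor for each sample that sets the median gene equal between samples (rescaled FPKM). The factors ranged from 1.15 to 1.38 in the embryo and from 0.617 to 0.714 in the adult, with 1.09 and 1.03 in the P5 samples. In the adult, 10 genes took between 48.1% and 61.1% of the reads on genes, against between 5.93% and 9.27% up to E16.5. Depth, recovered from the FPKM steps, ranged from 17345305 to 48314162 reads on genes up to P5, was 5817293 and 7957918 for the 4wk pair, and was 21820923 and 28431454 for the 12wk pair. The summed level of 8 acinar markers (Aqp5, Bhlha15, Slc12a2, Lpo, Amy1, Prol1, Bpifa2 and Pip), a check of the labelled tissue, lay between 44.1 and 66.8 at E14.5 and between 164000 and 252000 in the adult. Some samples stood apart from others of their age. E14.5 replicate 1 had a summed level of 8 duct markers of 50.9, against 126 and 138, and of 10 neuron markers of 109, against 68.3 and 74. The 4wk replicate 1 had a summed level of 5 adipocyte markers of 979, against 87.6 in 4wk replicate 2, and P5 replicate 1 had 1020, against 313. The part of these cells in the receptor levels was not tested. In whole glands, fewer cells of a type and less RNA per cell cannot be told apart.

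The make-up of the receptor RNA differed between embryo and adult. Among the 9 receptors, Adra2a took 37% ± 8.5 (SD, n = 7) of the summed FPKM in the embryo and 0.315% ± 0.381 (SD, n = 4) in the adult. Adra1a went the other way, from 1.02% ± 0.863 in the embryo to 3.03% ± 0.473 (n = 2) at P5 and 36.8% ± 8.11 in the adult. Chrm3 kept a share of 23.6% ± 7.46 in the embryo and 24.3% ± 5.4 in the adult. These shares are taken within a sample and do not depend on the rescaling.

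**Figure D1:**
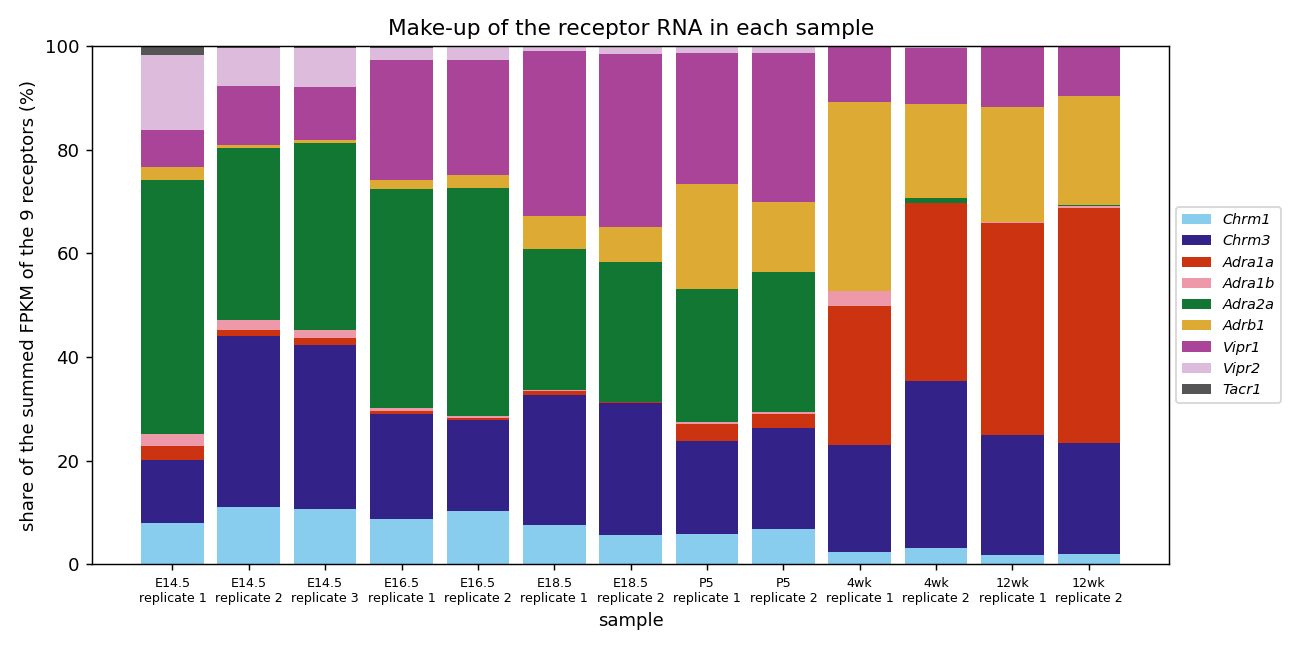
Stacked bars give the share of each receptor, in percent, in the summed FPKM of the 9 receptors in each of the 13 samples. Adra2a fills between 27% and 49% of the bar in the embryonic samples and at most 0.851% in the adult samples, where Adra1a fills between 26.8% and 45.3%.

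Of the 9 receptors, 7 reached 1 FPKM as deposited in at least 1 sample and were tested by limma, among 14650 genes. A gene was called where its log2 fold change reached 1 in either direction, on the log2(rescaled FPKM + 1) scale, with an adjusted p below 0.1 (Benjamini-Hochberg over all tested genes). In adult against embryo, 3 of the 7 tested receptors were called higher, where 13.8% of all tested genes were, and 1 was called lower, where 14.7% were. The median log2 fold change of the 7 was 0.51 and that of all tested genes was -0.08. On the FPKM as deposited, whose median gene fell by 0.75, 2 receptors were called higher (5.58% of all genes) and 1 lower (38.0% of all genes). In adult against P5, 1 of 7 was called higher (6.05% of all genes) and 1 lower (8.53%). In P5 against embryo, 2 of 7 were called higher (5.55%) and none lower (3.90%). Without P5 replicate 1, no receptor was called in P5 against embryo, with 248 genes called in all in place of 1384, and without P5 replicate 2, 600 genes were called. With 1 of the 2 E18.5 samples left out, whichever it was, 4 receptors were called there, Chrm3 and Vipr1 being added.

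**Figure D2:**
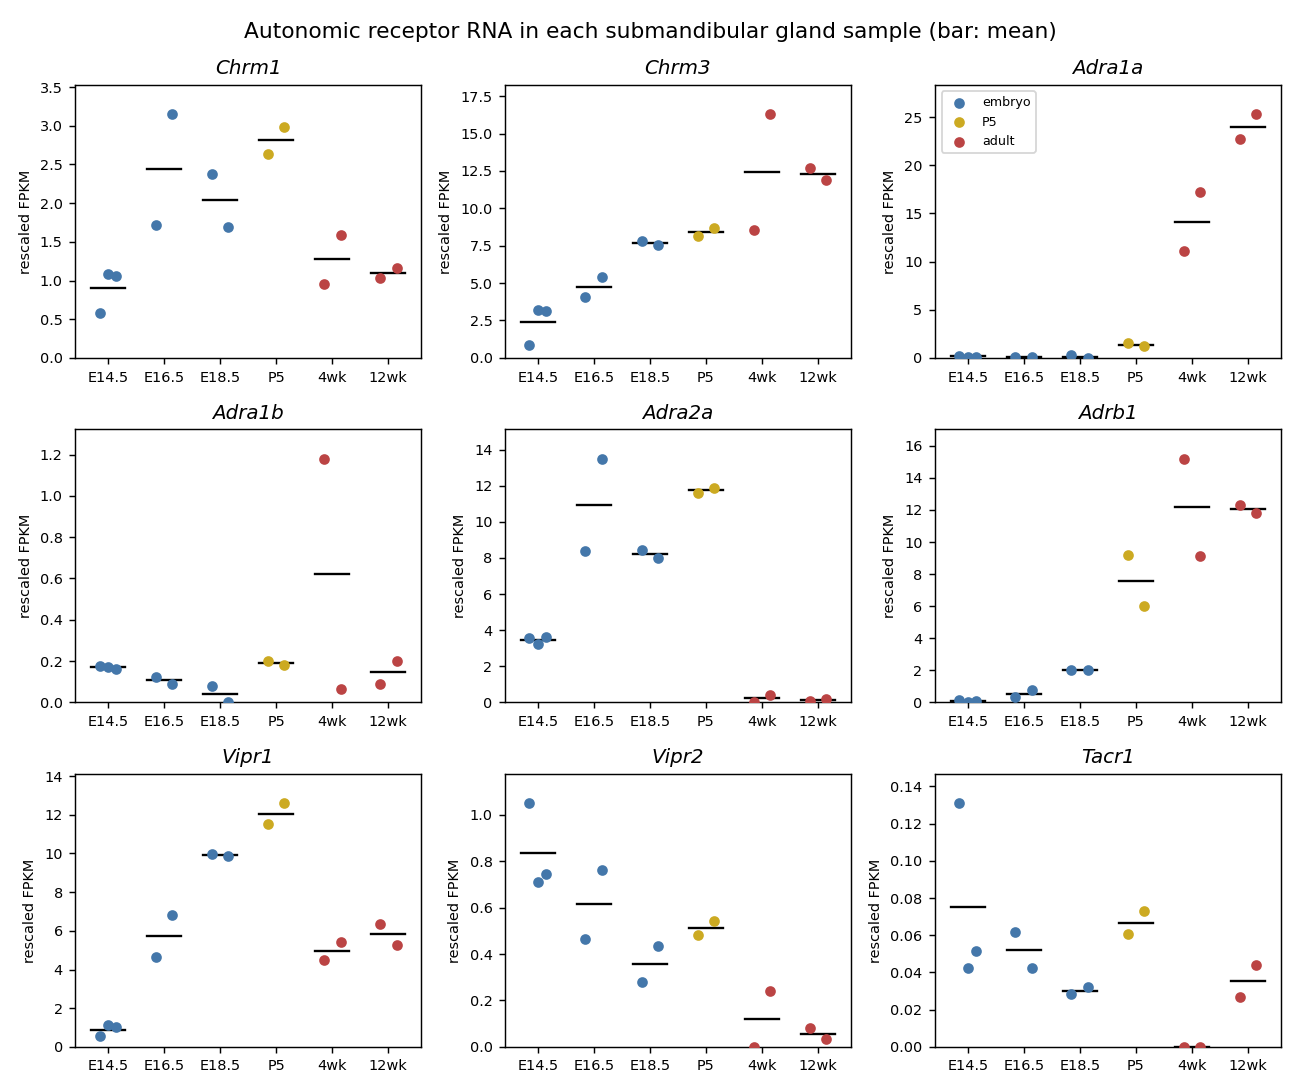
Each panel plots 1 receptor in rescaled FPKM (linear axis from 0, scaled to each panel) against time point, with a point for each of the 13 samples and a bar at the mean of each time point. Adra1a lies between 0.0276 and 0.252 in the embryo and between 11.1 and 25.3 in the adult, whereas Adra2a lies between 3.24 and 13.5 in the embryo and at most at 0.428 in the adult.

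Chrm3, which encodes the M3 receptor that drives most of the fluid secretion of the gland, rose from the embryo to the adult on the rescaled values. The E14.5 samples had 0.89, 3.2 and 3.16, those of E16.5 4.04 and 5.4, those of E18.5 7.8 and 7.53, the P5 pair 8.13 and 8.67, the 4wk pair 8.58 and 16.3 and the 12wk pair 12.7 and 11.9. Every adult sample lay above every embryonic sample, and E14.5 replicate 1, where duct markers were low, was the lowest. The adult mean of 12.4 ± 3.15 (n = 4) was 2.7-fold the embryonic mean of 4.57 ± 2.5 (n = 7), with a log2 fold change of 1.38 ± 0.35 (SE) and an adjusted p of 0.0036 by limma. On the FPKM as deposited the log2 fold change was 0.57 ± 0.34 and was not called (adjusted p = 0.14). The step from P5 to the adult, 0.48 ± 0.48, was not called (adjusted p = 0.5), and the ranges of the samples overlapped.

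Chrm1, which encodes the M1 receptor, stayed low, with its highest mean at P5. Rescaled FPKM were 0.578, 1.08 and 1.06 in the E14.5 glands, 1.72 and 3.15 in those of E16.5, 2.38 and 1.69 in those of E18.5, 2.64 and 2.99 in the P5 glands, 0.957 and 1.59 in those of 4wk mice and 1.03 and 1.16 in those of 12wk mice. All adult samples lay below both P5 samples, and within the range of the embryo. The difference of adult against P5, -0.81 ± 0.31 on the log2 scale, had an adjusted p of 0.071 but was under the fold limit. On the FPKM as deposited, it was -1.17 ± 0.33 and was called (adjusted p = 0.012). There, 20.8% of all tested genes were called lower and 2.31% higher. On the rescaled values with 0.1 added in place of 1, it was -1.21 ± 0.51 and was called (adjusted p = 0.095 by limma). By voom, a fit on reads, it was -1.29 ± 0.56 and was not called (adjusted p = 0.11). The ratio of Chrm3 to Chrm1 within a sample, which needs no scaling, lay between 1.54 and 4.45 in the embryo, was 3.07 and 2.9 at P5, and lay between 8.97 and 12.4 in the adult. The adult ratios all lay above those of the embryo and P5.

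Adra1a, which encodes the alpha-1A adrenergic receptor, showed the largest log2 rise of the 7 tested receptors in adult against embryo. The E14.5 samples had 0.198, 0.125 and 0.124, the E16.5 pair 0.123 and 0.112, and the E18.5 pair 0.252 and 0.0276, from between 5 and 28 reads a sample. The P5 pair had 1.53 and 1.19, the 4wk pair 11.1 and 17.2, and the 12wk pair 22.7 and 25.3, from 1641 and 2220 reads. The stages did not overlap, and neither did 4wk and 12wk. The adult mean of 19.1 ± 6.29 (n = 4) was 139-fold the embryonic mean of 0.137 ± 0.0709 (n = 7), with a log2 fold change of 4.08 ± 0.18 by limma (adjusted p = 1.3e-09), which understates this ratio because 1 is added to each value. In the limma fit, the rise was called at each step between stages. It was 1.05 ± 0.23 from embryo to P5 (adjusted p = 0.01) and 3.03 ± 0.25 from P5 to adult (adjusted p = 3.3e-06). Without P5 replicate 1, which left 1 P5 sample, the first step was 0.95, under the fold limit. P5 replicate 1 had the higher adipocyte markers of its pair, and the part of fat cells in this step was not tested. From 4wk to 12wk the difference was 0.75 ± 0.20 (adjusted p = 0.024), under the fold limit.

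Adrb1, which encodes the beta-1 receptor, rose from the embryo to P5 and was then at levels that overlapped those of the adult. The level was 0.171, 0.049 and 0.0575 for the E14.5 samples, 0.329 and 0.748 for the E16.5 pair, 2.01 and 1.99 for the E18.5 pair, 9.18 and 6.02 for the P5 pair, 15.2 and 9.15 for the 4wk pair and 12.3 and 11.8 for the 12wk pair. No sample of an embryonic time point overlapped the next, and the P5 samples lay above all embryonic samples, while P5 and adult overlapped. The P5 mean of 7.6 ± 2.24 (n = 2) was 9.93-fold the embryonic mean of 0.766 ± 0.877, with a log2 fold change of 2.40 ± 0.40 (adjusted p = 0.0028 by limma), and without P5 replicate 1 this was 2.13 (adjusted p = 0.1) and not called. In adult against embryo it was 3.01 ± 0.31 (adjusted p = 2.8e-06), and in adult against P5 0.61 ± 0.43 (adjusted p = 0.32), which was -0.0044 on the FPKM as deposited. Adipocyte markers moved with the rise at P5: 4 of 5 were called higher in P5 against embryo, where 5.55% of all genes were. Their summed level lay between 18.2 and 314 in the embryo. Most of that sum was Fabp4 (18.1 to 291), the marker that was not called. P5 replicate 1 and 4wk replicate 1, where the sum was highest, also had the higher Adrb1 of their pairs. In the 3 adult samples where these markers summed to between 87.6 and 126, Adrb1 lay between 9.15 and 12.3. The part of fat cells in the P5 level was not tested. The ratio of Adra1a to Adrb1 was 1.16, 2.56 and 2.15 at E14.5, where both were low, and between 0.0138 and 0.373 at E16.5 and E18.5. It was 0.166 and 0.198 in the P5 pair, 0.733 and 1.88 in the 4wk pair, and 1.85 and 2.15 in the 12wk pair, so that E14.5 and 12wk overlapped.

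Adra2a, which encodes the alpha-2A receptor that couples to Gi, was measured mainly in the embryo and at P5, and was called lower in the adult. The level was 3.59, 3.24 and 3.6 for the E14.5 samples, 8.38 and 13.5 for the E16.5 pair, 8.46 and 7.99 for the E18.5 pair, and 11.6 and 11.9 for the P5 pair. At 4wk it was 0 and 0.428, and at 12wk 0.0531 and 0.176, with 23 reads in the 4 adult samples together. The 0 in 4wk replicate 1 allows a level of up to 0.19, the value of 3 reads in that sample, and covers counting error only. The embryonic and adult samples did not overlap. The embryonic mean was 42.4-fold the adult mean, with a log2 fold change of -2.65 ± 0.31 in adult against embryo (adjusted p = 8.3e-06 by limma) and -3.47 ± 0.43 in adult against P5 (adjusted p = 0.00011). The fall lay between P5 and 4wk, where the log2 fold change was -3.41 ± 0.22 (adjusted p = 1.6e-06). Mesenchyme markers fell in the same interval, from between 1050 and 1090 at P5 to between 337 and 359 at 4wk for the sum of 6 genes, and neuron markers lay between 35 and 69.4 at P5 and between 35.8 and 49.2 at 4wk. Their part in the fall was not tested.

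Adra1b, which encodes the alpha-1B receptor, was near the limit of detection and did not reach 1 FPKM as deposited, so that it was left out of the limma fit on FPKM. It lay between 0 and 0.178 in the embryo, at 0.2 and 0.181 at P5, and at 0.0668 to 0.201 in 3 of the 4 adult samples. The other adult sample, 4wk replicate 1, had 1.18 from 15 reads, and it was also the adult sample with the high adipocyte markers. Adrb3, the beta-3 receptor of fat cells, was 7.75 in that sample and between 0.146 and 0.318 in the other adult samples. The part of fat cells in the Adra1b level was not tested. With voom on the recovered reads, which models reads in place of log2(FPKM + 1), and with no filter on low values, Adra1b was not called in any comparison of stages (adult against embryo 1.38 ± 0.98, adjusted p = 0.26 by voom, and 0.25 ± 0.16, adjusted p = 0.23 by limma with no filter). Of the steps between time points, voom called P5 against E18.5 (3.49 ± 1.15, adjusted p = 0.054), where it called 7.46% of all genes higher and 3.93% lower. That step rests on 32 and 24 reads at P5 against 5 and 0 at E18.5, and with no filter it was 0.20 ± 0.25 (adjusted p = 0.71).

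The first bases before the start of transcription are shown for Adra2a and Adrb1, the adrenergic receptors with opposite changes, and for Vipr1, as called receptors that hold one of the motifs searched; Chrm3, also called, holds none of them. The sequences are the 250 bases before the start in RefSeq on GRCm38.p6, written 5′ to 3′ on the strand of the gene, and capitals mark the motifs TGACG and TATAAA, searched on both strands with TGACGTCA and CAGCTG.
Adra2a, chr19:54045009-54045258, plus strand: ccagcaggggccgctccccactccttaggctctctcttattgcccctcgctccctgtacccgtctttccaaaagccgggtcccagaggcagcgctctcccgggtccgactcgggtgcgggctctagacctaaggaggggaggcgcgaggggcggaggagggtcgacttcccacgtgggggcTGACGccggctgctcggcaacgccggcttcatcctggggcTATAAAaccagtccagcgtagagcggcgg
Adrb1, chr19:56721867-56722116, plus strand: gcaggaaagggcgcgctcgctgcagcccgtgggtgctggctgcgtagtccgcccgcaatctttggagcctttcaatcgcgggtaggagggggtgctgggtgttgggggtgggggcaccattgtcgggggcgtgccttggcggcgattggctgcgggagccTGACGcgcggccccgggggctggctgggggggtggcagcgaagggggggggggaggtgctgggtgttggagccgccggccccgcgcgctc
Vipr1, chr9:121642466-121642715, plus strand: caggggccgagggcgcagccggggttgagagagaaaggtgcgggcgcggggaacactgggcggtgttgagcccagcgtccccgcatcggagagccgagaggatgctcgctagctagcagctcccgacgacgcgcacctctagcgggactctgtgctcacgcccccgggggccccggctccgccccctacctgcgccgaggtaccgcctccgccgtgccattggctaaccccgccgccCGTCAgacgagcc
Of the 9 receptors, 7 had an entry in the table, and Adra1a and Chrm1 had none. TGACG, the core of the cyclic AMP response element, was found before Adra2a, Adrb1, Vipr1 and Tacr1. It was in 17.8% of all 32851 promoters, and its part in the receptor levels was not tested. The promoters of these receptors were between 58.8% and 74% G and C, against a median of 52.4% for all promoters. The 17.8% was not matched for base content. TATAAA was found before Adra2a and in 12.4% of all promoters. The whole element TGACGTCA was before none of the 7 and in 1.55% of all promoters, and CAGCTG was before Tacr1 and in 13% of all.

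Vipr1, which encodes the VPAC1 receptor for VIP and PACAP, rose from E14.5 to E16.5, had its highest levels at P5 and was lower at 4wk. The E14.5 samples had 0.536, 1.11 and 1.02, those of E16.5 4.63 and 6.81, those of E18.5 9.95 and 9.86, the P5 pair 11.5 and 12.6, the 4wk pair 4.47 and 5.4 and the 12wk pair 6.35 and 5.27. No time point up to P5 overlapped the one before, and all adult samples lay below both P5 samples. Adult against embryo did not differ beyond the spread (0.51 ± 0.52 on the log2 scale, adjusted p = 0.41 by limma), since the embryonic samples lay on both sides of the adult ones. Adult against P5 was -1.04 ± 0.72 (adjusted p = 0.31) in the fit by stage, whose spread includes that between embryonic ages, and on the FPKM as deposited it was -1.61 ± 0.74 (adjusted p = 0.089) and was called. With only the adult and P5 samples in the fit, it was -1.04 ± 0.17 on the rescaled values (adjusted p = 0.008) and was called, where 8.03% of all genes were called lower and 5.92% higher. In the fit by time point, 4wk against P5 was -1.14 ± 0.20 (adjusted p = 0.0012).

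Vipr2, which encodes the VPAC2 receptor, was low throughout and lowest in the adult. Rescaled FPKM were 1.05, 0.712 and 0.745 in the E14.5 glands, 0.464 and 0.763 in those of E16.5, 0.279 and 0.436 in those of E18.5, 0.483 and 0.544 in the P5 glands, 0 and 0.241 in those of 4wk mice and 0.0795 and 0.0328 in those of 12wk mice. Every adult sample lay below every embryonic and P5 sample. The embryonic mean was 7.21-fold the adult mean, which rests on 10 reads in the 4 adult samples, and the log2 fold change of -0.58 ± 0.14 (adjusted p = 0.0025 by limma) was under the fold limit on the scale with 1 added. With voom it was -3.01 ± 0.59 (adjusted p = 0.0007) and was called, where 20.3% of all genes were called lower and 18.0% higher. The ratio of Vipr1 to Vipr2 was 0.51, 1.56 and 1.37 at E14.5 and 23.9 and 23.2 at P5.

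Tacr1, which encodes the receptor for substance P, was at most 0.131 rescaled FPKM in any sample. It had between 3 and 17 reads in the embryonic samples, 16 reads in each P5 sample and 6 reads in the 4 adult samples together. The 0 in both 4wk samples allows levels of up to 0.144 and 0.122, so that a difference from the embryo was not detectable at this depth. Tacr1 was also left out of the limma fit on FPKM, and adult against embryo was -0.74 ± 0.51 by voom (adjusted p = 0.24) and -0.05 ± 0.03 with no filter (adjusted p = 0.11). Neither alternative called it in any comparison.

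**Figure D3:**
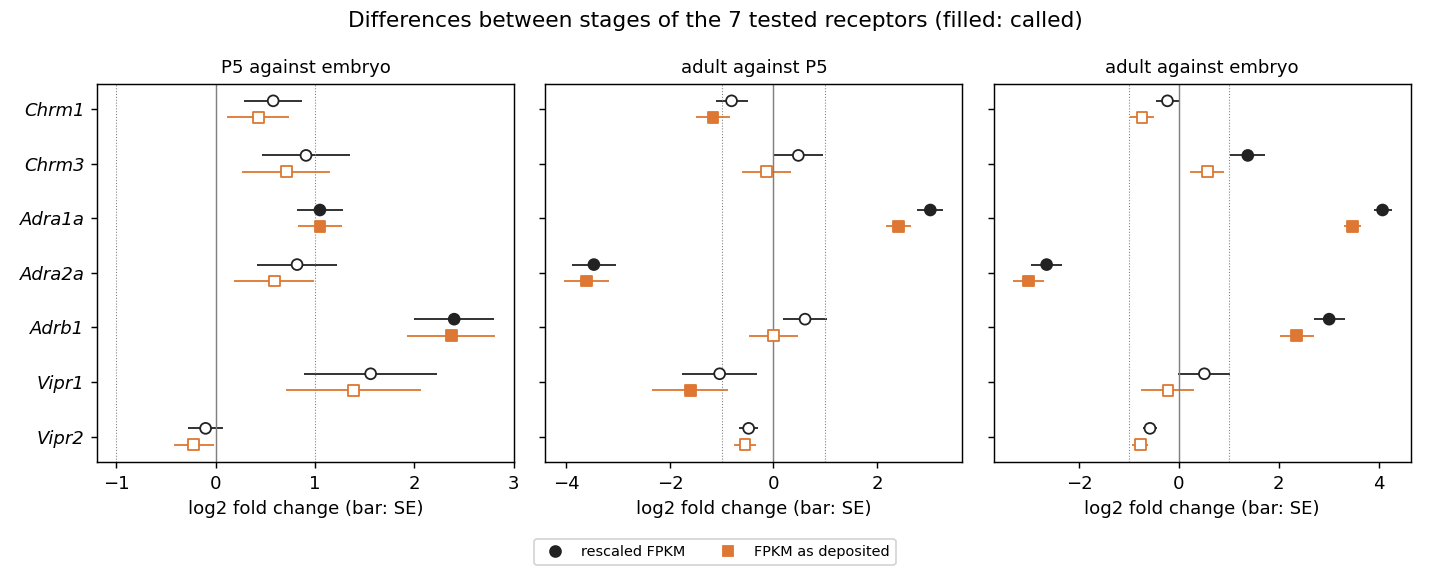
Log2 fold changes of the 7 tested receptors in the 3 comparisons of stages, with bars of 1 SE, for the rescaled FPKM (circles) and the FPKM as deposited (squares), filled where called and with dotted lines at the fold limit. Adra1a, Adra2a and Adrb1 are filled on both scales in adult against embryo, whereas Chrm3 is filled only on the rescaled values, at 1.38 against 0.57.

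To place each change in time, neighbouring time points were compared in a fit that kept all 6 ages apart. From E14.5 to E16.5, Adra2a rose by 1.38 ± 0.20 (adjusted p = 0.0014 by limma) and Vipr1 by 1.83 ± 0.18 (adjusted p = 0.00016), so that 2 of 7 were called higher, where 3.64% of all genes were, and none lower, where 0.751% were. Both remained called without E14.5 replicate 1, and leaving out any 1 sample gave between 1.07 and 1.70 for Adra2a and between 1.59 and 2.06 for Vipr1. The sum of 6 skeletal muscle markers was 318 and 659 in the E16.5 samples, between 76.3 and 181 at E14.5 and at most 18.9 at E18.5, and the part of adjoining muscle in these steps was not tested. From E16.5 to E18.5 none of the 7 was called (1.32% of all genes were called higher and 1.17% lower). Adrb1 was nearest, at 0.98 ± 0.24 (adjusted p = 0.034). Adding 1 to each value flattens steps at low levels. By voom, Adrb1 was called in this step (1.98 ± 0.51, adjusted p = 0.029) and in E16.5 against E14.5 (2.61 ± 0.70, adjusted p = 0.02). With 0.1 added in place of 1, both steps were called as well (1.80 and 1.70). In E16.5 against E14.5, voom also called Chrm1 (1.39 ± 0.32) and Chrm3 (1.08 ± 0.37). Voom called 1287 genes higher there and 556 in E18.5 against E16.5, against 533 and 193 in the limma fit on FPKM. From E18.5 to P5, Adra1a rose by 1.05 ± 0.20 (adjusted p = 0.0075) and Adrb1 by 1.49 ± 0.24 (adjusted p = 0.0038), where 2.37% of all genes were called higher and 1.79% lower. The Adra1a step was under the fold limit without E18.5 replicate 2 (0.91) or P5 replicate 1 (0.95).

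From P5 to 4wk, Adra1a rose by 2.66 ± 0.20 (adjusted p = 4.5e-06 by limma), and Adra2a and Vipr1 fell, as given above. These were 1 of 7 higher (6.37% of all genes) and 2 of 7 lower (8.72%). From 4wk to 12wk none of the 7 was called, where 3.62% of all genes were called higher and 3.24% lower. Without 4wk replicate 2, Adra1a was called there at 1.04, and 1885 genes were called in all in place of 1006. The 4wk samples are the shallowest of the series.

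The order of the receptors by level per kilobase changed with age. At E14.5 Adra2a led with a mean of 3.48, above Chrm3 at 2.41, and their ranges did not overlap. The ranges were close, with Adra2a at 3.24 and Chrm3 at 3.2 in replicate 2. The Chrm3 mean was lowered by replicate 1, at 0.89. Chrm3, Chrm1, Vipr1 and Vipr2 overlapped each with the next. At E16.5 Adra2a (10.9) led, and at E18.5 Vipr1 (9.91) stood above Adra2a (8.23) and Chrm3 (7.66) without overlap. At P5 Vipr1 (12.1) and Adra2a (11.7) overlapped, and so did Chrm3 (8.4) and Adrb1 (7.6). At 4wk Adra1a (14.2), Chrm3 (12.4) and Adrb1 (12.2) overlapped each with the next, above Vipr1 (4.93). At 12wk Adra1a led with 24, above Chrm3 (12.3) and Adrb1 (12), which overlapped, and Vipr1 (5.81) and Chrm1 (1.09) followed without overlap. The ranges of Adra1b, Adra2a, Vipr2 and Tacr1 at 12wk lay at or below 0.201.

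In the genome of the files, mm9, with GENCODE M1 genes, 3 of the receptors lie on chromosome 19: Chrm1 (chr19:8738495-8758077), Adra2a (chr19:54119672-54123472) and Adrb1 (chr19:56796862-56799352). The others are Chrm3 (chr13:9876381-9878329), Adra1a (chr14:67254088-67390005), Adra1b (chr11:43588108-43714712), Vipr1 (chr9:121551834-121582072), Vipr2 (chr12:117316196-117384734) and Tacr1 (chr6:82352328-82510097). All are protein-coding, and levels were summed over the exons of a gene. The exon length behind the FPKM lay between 2491 bases for Adrb1 and 6286 bases for Chrm1. That of Chrm3, 3168 bases, was longer than its M1 gene span, so the gene models used by the authors differ there.

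Of 10 other receptors of the same families, 5 were tested, with none called higher and 1 called lower in adult against embryo, where 13.8% and 14.7% of all tested genes were. These counts are near those shares, as were none higher and 2 lower on the FPKM as deposited (5.58% and 38.0% of all genes), and voom called 3 higher and 3 lower of 9 (18.0% and 20.3%). Adcyap1r1, the PACAP receptor, fell from a range of 4 to 7.72 in the embryo to 0.793 to 1.5 in the adult, by 1.79 ± 0.17 (adjusted p = 1.1e-06). Chrm2 (-0.49), Chrm4 (0.62), Adra1d (-0.67) and Adrb3 (0.94) were under the fold limit, and Chrm5, Adra2b, Adra2c, Tacr2 and Tacr3 did not reach 1 FPKM.

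RNA of the nerve transmitters was measured in the same samples, although the cell bodies of sympathetic neurons lie outside the gland. Of 6 nerve peptide genes, 5 were tested and 2 were called higher in adult against embryo (13.8% of all genes), also on the FPKM as deposited (5.58%), and none lower. Tac1, which encodes substance P, rose by 1.68 ± 0.29 (adjusted p = 0.00023 by limma), from a range of 0.137 to 1.49 in the embryo to 1.83 to 8.84 in the adult. Gal, which encodes galanin, rose by 1.58 ± 0.59 (adjusted p = 0.031), with 7.23 and 17.5 at 4wk but 0.192 and 0.477 at 12wk, so that both 4wk samples carried the difference. Without E14.5 replicate 1 and 4wk replicate 1, 1 of these peptide genes was called higher. Vip itself lay between 1.73 and 9.01 in the embryo and between 1.75 and 7.72 in the adult (log2 fold change of -0.05 ± 0.37, adjusted p = 0.92). Of 5 genes of acetylcholine synthesis, transport and breakdown, 4 were tested and none was called. As deposited, 2 of the 4 were called lower, Ache by 1.27 and Bche by 1.02, where 38.0% of all genes were, and by voom 3 of 5 were, Slc18a3 with them, where 20.3% of all genes were. Of 5 noradrenergic genes, 3 were tested and 1 was called lower, where 14.7% of all genes were (2 on the FPKM as deposited). This was Ddc, the enzyme that makes dopamine from L-DOPA, which fell by 2.08 ± 0.29 (adjusted p = 3.7e-05 by limma). The untested genes of this list, Th and Dbh, lay at or below 0.0694 and 0.206 rescaled FPKM in all samples.

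Signalling genes downstream of the receptors were described by list. In adult against embryo, 13.8% of all tested genes were called higher and 14.7% lower on the rescaled values, and 5.58% and 38.0% on the FPKM as deposited. Of 11 Gq arm genes, 10 were tested, with 2 called higher and none lower and a list median of 0.22. The deposited FPKM gave 1 higher and 2 lower, with a median of -0.40. Plcb4, a phospholipase C that Gq activates, rose by 2.92 ± 0.27 (adjusted p = 1.1e-06 by limma) from a range of 15 to 41 in the embryo to 142 to 249 in the adult, and Prkcd, a protein kinase C, rose by 1.63 ± 0.15 (adjusted p = 7.9e-07), which was 0.72 and not called on the FPKM as deposited. Of 19 Gs arm genes, all tested, 3 were called higher (the adenylyl cyclases Adcy9, by 1.72 ± 0.24, and Adcy8, by 1.66 ± 0.34, and the cyclic AMP regulated transcription factor Crem, by 1.26 ± 0.16) and 2 lower (Adcy4 by 1.19 ± 0.20 and 1 other), with a median of -0.15. These counts were 0 higher and 8 lower on the FPKM as deposited. The 3 higher, and the 8 lower as deposited, are near the shares of all genes. Of 5 Gi arm genes, none was called higher and 2 were called lower, Gnao1 by 1.28 ± 0.16 and Gnai2 by 1.26 ± 0.13, both alpha subunits of the class to which the Adra2a receptor couples. By voom and on the FPKM as deposited, 4 of the 5 were called lower, where 20.3% and 38.0% of all genes were.

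Of 16 genes that end receptor signals, 15 were tested, with 4 called higher and 2 lower in adult against embryo and a median of 0.37 (1 higher and 6 lower on the FPKM as deposited). Of all tested genes, 13.8% were called higher and 14.7% lower (5.58% and 38.0% as deposited), so that the 2 lower, and the 6 lower as deposited, are near those shares. Pde4a, which breaks down cyclic AMP, rose by 2.62 ± 0.21 (adjusted p = 2.4e-07 by limma) and Arrb1, a beta-arrestin, by 1.73 ± 0.13 (adjusted p = 1.4e-07). Pde4d rose by 1.25 ± 0.19 (adjusted p = 8.3e-05). Rgs16 fell by 1.20 ± 0.25 (adjusted p = 0.0011) and Grk6 by 1.19 ± 0.18 (adjusted p = 6.6e-05 by limma). Both were also called lower on the FPKM as deposited, where Arrb1 was 0.89 and Pde4d 0.43, neither of them called. Rgs16 was near the limit of detection in the adult, between 0 and 0.262 rescaled FPKM from 18 reads in the 4 samples together, against 1098 reads for Grk6. Of 8 purinergic receptors, which respond to ATP and other nucleotides or to adenosine, 7 were tested, with 4 called higher and 2 lower on both scales and a median of 2.27, beside the same shares of all genes. P2ry14 rose by 3.81 ± 0.17 (adjusted p = 1.7e-09), Adora1 by 3.26 ± 0.14 (adjusted p = 1.4e-09) and P2rx4 by 3.09 ± 0.59 (adjusted p = 0.00049), whereas Adora2b fell by 2.45 ± 0.26 (adjusted p = 3.5e-06). Acinar markers rose in the same comparison, with 7 of 8 called higher, and so did 5 of 5 tested granular duct markers (the untested Ren1 was listed at 0 in all samples but 12wk replicate 1), and the part of cell makeup in these differences was not tested.

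**Figure D4:**
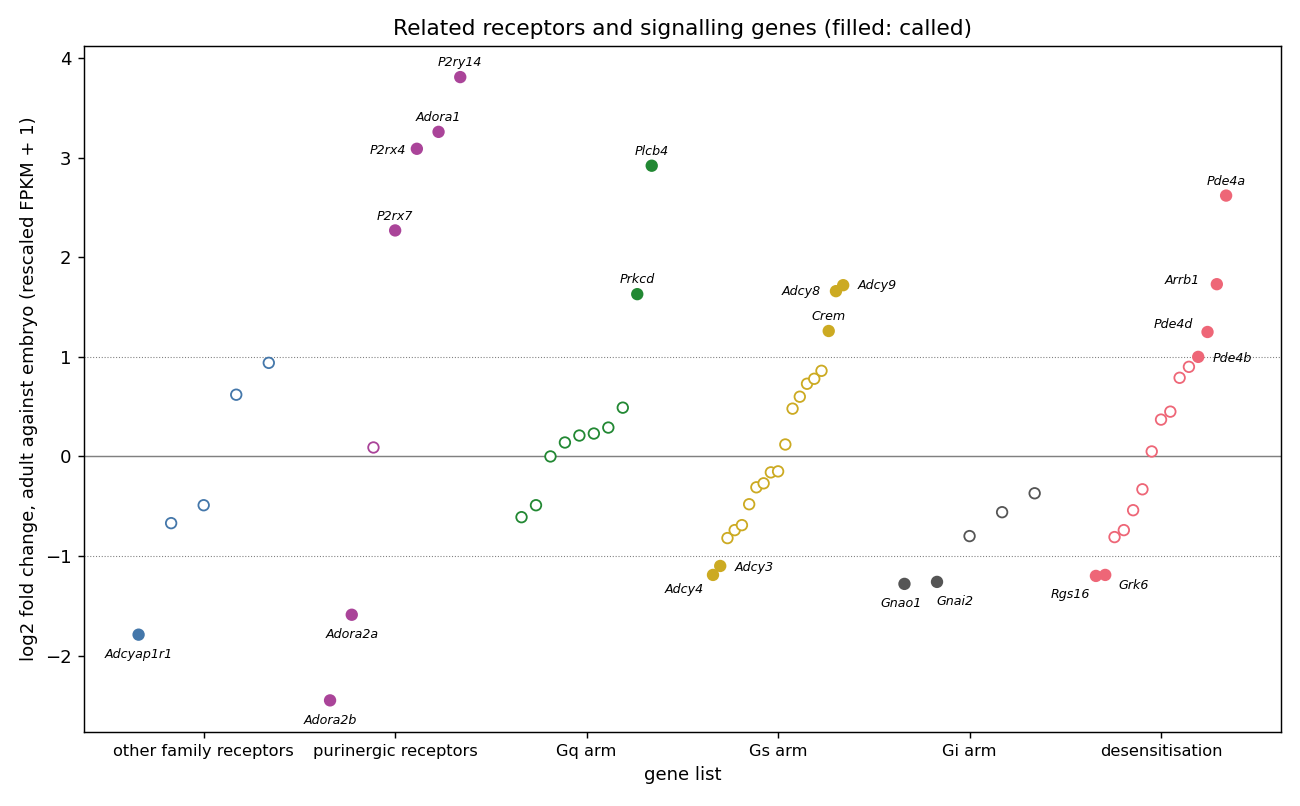
Log2 fold changes of adult against embryo on the rescaled FPKM + 1 scale for tested genes of 6 lists, 1 point a gene, filled and named where called, with dotted lines at the fold limit. Purinergic receptors spread from -2.45 for Adora2b to 3.81 for P2ry14, whereas no Gi arm gene lies above 0.

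The genes whose pattern over the 13 samples was most like that of each tested receptor were found by Pearson r among 10696 genes that varied by at least 1 log2 unit. These r are a description: many genes share the trend with age, and samples of 1 age are not independent. Adra1a was closest to Ces1e and Fa2h (both r = 0.997), a carboxylesterase and a fatty acid hydroxylase, and Adrb1 to Oplah (0.992) and Pnpla7 (0.990). Chrm3 was closest to Lyn (0.988), a Src family kinase, and Chdh (0.981). Adra2a was closest to Rhbdf1 (0.982) and Fam43a (0.974), Vipr1 to Paqr6 (0.969) and Ephb6 (0.956), Vipr2 to Ext2 (0.978) and Maged1 (0.975), and Chrm1 to the transcription factor Foxc1 (0.945) and Inhbb (0.935). Over the means of the 6 time points, only Pnpla7 remained among the 2 closest genes, and the others named ranked from 3 to 49. Among the receptors themselves, Adra1a and Adrb1 followed each other with r = 0.85 and Adra1a and Adra2a were opposed with r = -0.85.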

How the data were processed

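RNA-seq was measured in 13 samples of whole submandibular gland. Single-end reads of 50 bases were aligned by the authors with TopHat2 2.0.13 over Bowtie2 2.2.6 on the mm9 build; the authors counted uniquely placed reads on UCSC genes with featureCounts, and deposited FPKM for 23364 genes a sample. The authors name DESeq2 1.10.1 for normalization. The deposited FPKM had unequal median-of-ratios factors all the same, so each sample was divided by its factor, and the deposited values served as an alternative. Samples were grouped by their labels, and ages joined into stages as in the study's methods. Whole reads were recovered from the FPKM steps for all 20268 genes above 0 (tolerance 1e-05), which gave depth and an alternative fit. Genes of at least 1 FPKM in 1 sample were tested on log2(value + 1) with limma 3.58.1 (R 4.3.3, lmFit and eBayes with trend, all samples in 1 fit), in fits by stage and by time point and, as an alternative, with only the stages compared. Simulated data were used to test the fit. Named genes were all receptors, genes of fixed family and pathway lists, and the closest patterns. Of each list, up to 4 called genes with the largest change were named, while the plot of signalling genes names all that were called. Slc18a3, Ache, Bche, Th, Dbh, Rgs16 and Grk6 were named after their values were seen. The receptors and lists were chosen with earlier results of these data known. Nothing says that samples of an age came from separate litters, so p-values measure the spread between these samples. Replicates differed beyond sampling noise (chi-square per degree of freedom of at least 5.6), so none was merged. Tables and plots used Python 3.11.15, pandas 2.3.3 and matplotlib 3.10.9. A receptor of the family list is not reported here.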

Additional observations from a re-analysis of the deposited data

Results flagged for a closer look

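In 18 groups of samples (9 receptors in the embryo and in the adult), 2 held a sample far from the others, where chance gives about 1 in 20. The groups share the same samples and are not independent, so that this rate is a rough guide and no excess was shown. Adra1b was 1.18 rescaled FPKM in 4wk replicate 1, from 15 reads, against 0.0668 to 0.201 in the other adult samples, and the same sample had high adipocyte markers and Adrb3. Tacr1 was 0.131 in E14.5 replicate 1, from 17 reads, against 0.0282 to 0.0616 in the other embryonic samples, and the same sample had the highest summed level of neuron markers, at 109. Neither receptor reached 1 FPKM as deposited or entered the limma fit on FPKM, and neither was called between stages by voom or with no filter on low values.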

How the results depend on the processing

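No value of a receptor that was called changed direction under any alternative, and 1200 of 1253 alternative values of the 7 tested receptors kept direction and side of the threshold, with 30 gaining a call, 5 losing one and 18 of uncalled values changing sign. The 4 calls in adult against embryo held when any 1 sample, or E14.5 replicate 1 and 4wk replicate 1 together, was left out. Ratios of FPKM + 1 lay nearer to 1 than ratios of FPKM where a level was low (median Chrm3 to Chrm1 of 5.25 in the adult). The cause of these changes was not tested.

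On the FPKM as deposited, 6385 genes were called in adult against embryo, 3385 in adult against P5 and 3556 in 4wk against P5, and 4 receptors in adult against P5. Vipr1 in adult against embryo was then -0.22, and Chrm3 and Adrb1 were -0.14 and -0.0044 in adult against P5 and -0.16 and -0.01 in 4wk against P5, with Chrm3 at -0.02 in P5 against E18.5. With a pseudocount of 0.1, 4 receptors were called in adult against P5, and the genes called were 1116 for E16.5 against E14.5, 566 for E18.5 against E16.5, 988 for P5 against E18.5, 3723 for 4wk against P5 and 1832 for 12wk against 4wk. Adra1a in E18.5 against E16.5 was -0.03 there. By voom on recovered reads, an alternative chosen after seeing the data, as was leaving out the 2 samples together, the counts were 6989, 3865 and 3142 in the stage comparisons (adult against embryo, adult against P5 and P5 against embryo) and 1806, 1222, 2080 and 4031 in the first 4 steps between time points, 4 receptors were called in P5 against embryo, and Adra1a in E18.5 against E16.5 was -0.59. Voom also fitted Adra1b and Tacr1, and called Adra1b in P5 against E18.5 (3.49, adjusted p = 0.054). With only the stages compared, Vipr1 was called in adult against P5 (adjusted p = 0.008).

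Leaving out 1 sample at a time gave 248 to 1764 genes and 0 to 4 receptors called in P5 against embryo, 237 to 416 genes in E18.5 against E16.5, 368 to 661 in P5 against E18.5 and 850 to 1885 in 12wk against 4wk. In E18.5 against E16.5, Chrm1 ranged from -0.46 to 0.15 and Adra1a from -0.12 to 0.16. In 12wk against 4wk, Chrm1 ranged from -0.31 to 0.10, Chrm3 from -0.38 to 0.47, Adra2a from -0.36 to 0.15, Adrb1 from -0.31 to 0.36 and Vipr2 from -0.23 to 0.08, and Chrm3 was -0.38 without E14.5 replicate 1 and 4wk replicate 1 together.

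With the replicate number as a replicate block, 4031 genes were called in adult against embryo (4166 without it), 2073 in adult against P5 and 1038 in P5 against embryo. Samples with the same number did not deviate together (mean r of -0.012 over 30 pairs), so the numbers were not taken as pairs. The block added a call of Chrm3 in E16.5 against E14.5 (1.01).

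Depth limits the receptors with few reads in the adult, Adra1b, Adra2a, Vipr2 and Tacr1, above all at 4wk.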
